A study of Mus musculus with 9 samples.

Results

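Endothelial cells of the mouse heart were followed through 10 genes whose proteins sit at or just beneath the contacts between neighbouring cells. The genes were Cdh5, Pecam1, Esam, Cldn5, Ocln, Marveld2, Tjp1, F11r, Jam2 and Jam3, chosen as junction genes and found by symbol among the 18094 genes of the deposited table. All 10 were present and all 10 passed the filter on low counts, which left 15277 genes for testing.

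The material was poly(A) RNA from cells pulled out of freshly dissociated hearts with magnetic beads, sequenced as single reads on an Illumina instrument, with 3 libraries in each of 3 groups. BPN/3J is an inbred line with normal blood pressure and was sampled at 22 weeks of age. BPH/2J is an inbred line bred for high blood pressure and was sampled at 4 weeks and at 22 weeks. The comparison of normal with high blood pressure thus rests on 1 inbred line each, so strain and blood pressure cannot be told apart. Between the 4-week BPH/2J and the 22-week BPN/3J libraries strain and age cannot be told apart either. Within BPH/2J, age cannot be told apart from anything that changes with it, blood pressure included. The labels do not say whether the 3 libraries of a group came from separate animals, nor whether animals were pooled. The p-values therefore rest on library-to-library spread alone, and that spread may be technical. The bead product named in the labels is, as general knowledge, directed at CD31, the protein made from Pecam1, so Pecam1 belongs to the selection of the cells as well as to the genes measured.

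Junctions between endothelial cells hold the vessel wall together while letting fluid, solutes and leukocytes pass in a controlled way. Adherens junctions are built on VE-cadherin, whose cytoplasmic tail binds catenins. Tight junctions are built from strands of claudins, to which occludin and tricellulin belong as proteins with a MARVEL domain, and from scaffolds of the zonula occludens family that tie the strands to actin. Immunoglobulin-type adhesion molecules, namely the JAMs, ESAM and PECAM1, line the same contacts and also guide leukocyte passage.

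The libraries held 28806840 to 32913813 counts, so 3 counts corresponded to between 0.0921 and 0.105 CPM, the count scaled to library size. Levels below are CPM adjusted by the trimmed mean of M values (TMM), with differences from a quasi-likelihood fit in edgeR over all 9 libraries, 2-sided, and p-values adjusted by Benjamini-Hochberg over all tested genes with a threshold of 0.05. The 4-week BPH/2J replicate 1 stood apart from its group: the chi-square per degree of freedom was 53.5 and 46.4 against replicates 2 and 3, compared with 6.49 between those 2, and mitochondrial genes took 2.63% of its counts against 1.19% and 1.33%. The 14 pan-endothelial markers were present in every group, among them the VEGF receptor Kdr, at 1930 ± 205 CPM for BPN/3J, 2983 ± 189 for 4-week BPH/2J and 2953 ± 157 for 22-week BPH/2J (SD, n = 3). Of the 14, 7 were higher and none lower in 22-week BPH/2J than in BPN/3J. Between the ages 5 were higher and 2 lower at 22 weeks. In 4-week BPH/2J 5 were higher and 2 lower than in BPN/3J. Their summed level was 12080 to 12642 CPM in BPN/3J, 12140 to 13652 in 4-week and 13810 to 14521 in 22-week BPH/2J. Markers of other cells also moved. Of 18 cardiomyocyte markers, 14 were lower in the 22-week and 15 in the 4-week libraries of BPH/2J than in BPN/3J, and their summed level ran from 1359 to 1600 CPM in BPN/3J, 877 to 1017 in 4-week and 851 to 983 in 22-week BPH/2J. Of 15 macrophage and monocyte markers, 10 were lower and 1 higher in 22-week BPH/2J than in BPN/3J, and 13 were lower than in 4-week BPH/2J, with sums of 418 to 717, 485 to 924 and 250 to 288 CPM in the order given for the cardiomyocyte markers. No gene of these lists was at 0 in any group. Their part in the results on the junction genes was not tested directly. The level of each list, here the mean log2 CPM of its genes, was also entered as a covariate. Each difference of a junction gene that crossed the threshold in those fits is given below. The cardiomyocyte sums of BPN/3J did not overlap those of either BPH/2J group. The macrophage sums of 22-week BPH/2J did not overlap those of either other group. The covariate weights every marker alike, unlike the sum, and its own overlap between groups is not given here. Between such groups most markers of the list moved with the group, so these fits cannot separate marker level from group. A call lost, gained or turned in them is not a result corrected for other cells.

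Per unit of the deposited gene length, 8 of the junction genes were among the more abundant transcripts of these cells and 2 were scarce, in every group. Cdh5 came first everywhere, at 603 ± 10.5 RPKM (CPM per kilobase of that length) in BPN/3J, 798 ± 23.6 in BPH/2J at 4 weeks and 765 ± 50.7 at 22 weeks (SD, n = 3). That put it at rank 45, 30 and 33 among the 15277 tested genes. In BPN/3J, Esam at 357 RPKM stood above Pecam1 at 320, whereas in BPH/2J Pecam1 stood above Esam at both ages, at 452 against 294 RPKM at 4 weeks and 434 against 285 at 22 weeks. Libraries of these neighbours did not overlap in any group. The order of this pair in BPN/3J depended on the division by length. In CPM Pecam1 was above Esam in every library, with means of 1380 against 1024 in BPN/3J. Jam2 and Cldn5 overlapped in BPN/3J, at 180 and 176 RPKM. In 22-week BPH/2J, F11r at 135 and Cldn5 at 123 RPKM overlapped. F11r, Tjp1 and Jam3 lay between 41.6 and 135 RPKM in every group. Ocln and Marveld2 stood far below the rest, between 0.249 and 3.03 RPKM. Ocln was above Marveld2 in BPN/3J, at 0.483 against 0.249 RPKM, and below it in BPH/2J, at 0.659 against 2.42 at 4 weeks and 1.13 against 3.03 at 22 weeks. The summed level of the 10 genes was 1903 ± 65.6 RPKM in BPN/3J, 2063 ± 23.4 in 4-week and 2096 ± 62.5 in 22-week BPH/2J (SD, n = 3).

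**Figure D1:**
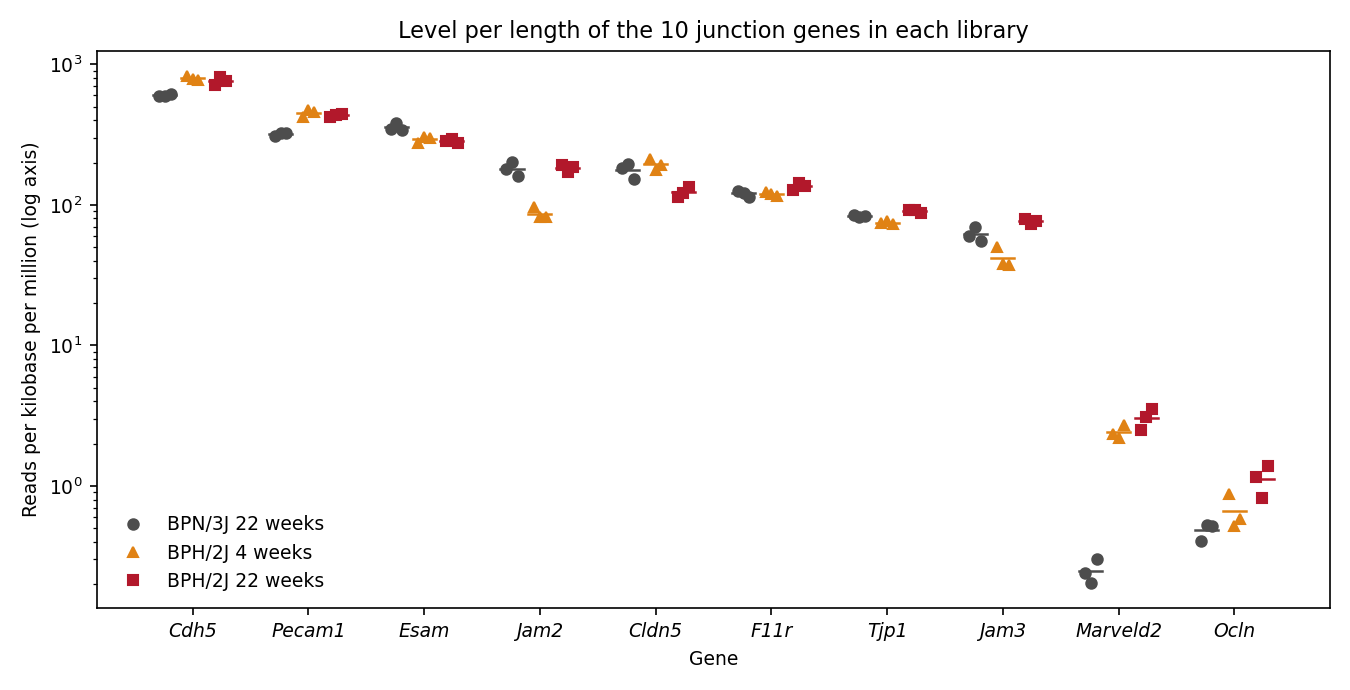
Level per length (RPKM, log axis) of the 10 junction genes in each of the 9 libraries, with a short line at each group mean of 3. Cdh5 is highest in every group, Ocln and Marveld2 lie far below the other 8 genes, and the Marveld2 points of both BPH/2J groups, at 2.19 to 3.51 RPKM, stand above those of BPN/3J, at 0.205 to 0.301.

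At 22 weeks, 6 of the 10 genes differed between the lines, against 38.0% of all tested genes. Marveld2, Ocln, Pecam1 and Cdh5 were higher in BPH/2J (4 of 10, against 19.8% of all genes), and Cldn5 and Esam were lower (2 of 10, against 18.2%). The libraries of the 2 lines did not overlap for 9 of the 10 genes, with 55.7% of all genes doing the same. The median log2 difference of the 10 genes was 0.24, beside 0.02 over all genes. For the 14 pan-endothelial markers it was 0.23, with 7 higher and none lower, so a shift of this size was not particular to the junction genes. From 4 to 22 weeks in BPH/2J, 6 of the 10 differed (41.0% of all tested genes). Jam2, Jam3, Tjp1, F11r and Ocln were higher at 22 weeks (5 of 10, against 19.9% of all genes) and Cldn5 was lower (1 of 10, against 21.1%). The ages did not overlap for 5 of the 10 (51.2% of all genes). The median was 0.23, beside 0.01 over all genes and 0.14 over the pan-endothelial markers. Between 4-week BPH/2J and 22-week BPN/3J, 7 of the 10 differed (53.1% of all tested genes). Marveld2, Pecam1 and Cdh5 were higher in BPH/2J (3 of 10, against 27.8% of all genes) and Jam2, Jam3, Esam and Tjp1 were lower (4 of 10, against 25.3%). These groups did not overlap for 7 of the 10 (59.2% of all genes). The median was 0.06, beside 0.00 over all genes and -0.03 over the pan-endothelial markers. The 3 comparisons share groups in pairs, so they are not independent, and each gene's values are given side by side.

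**Figure D2:**
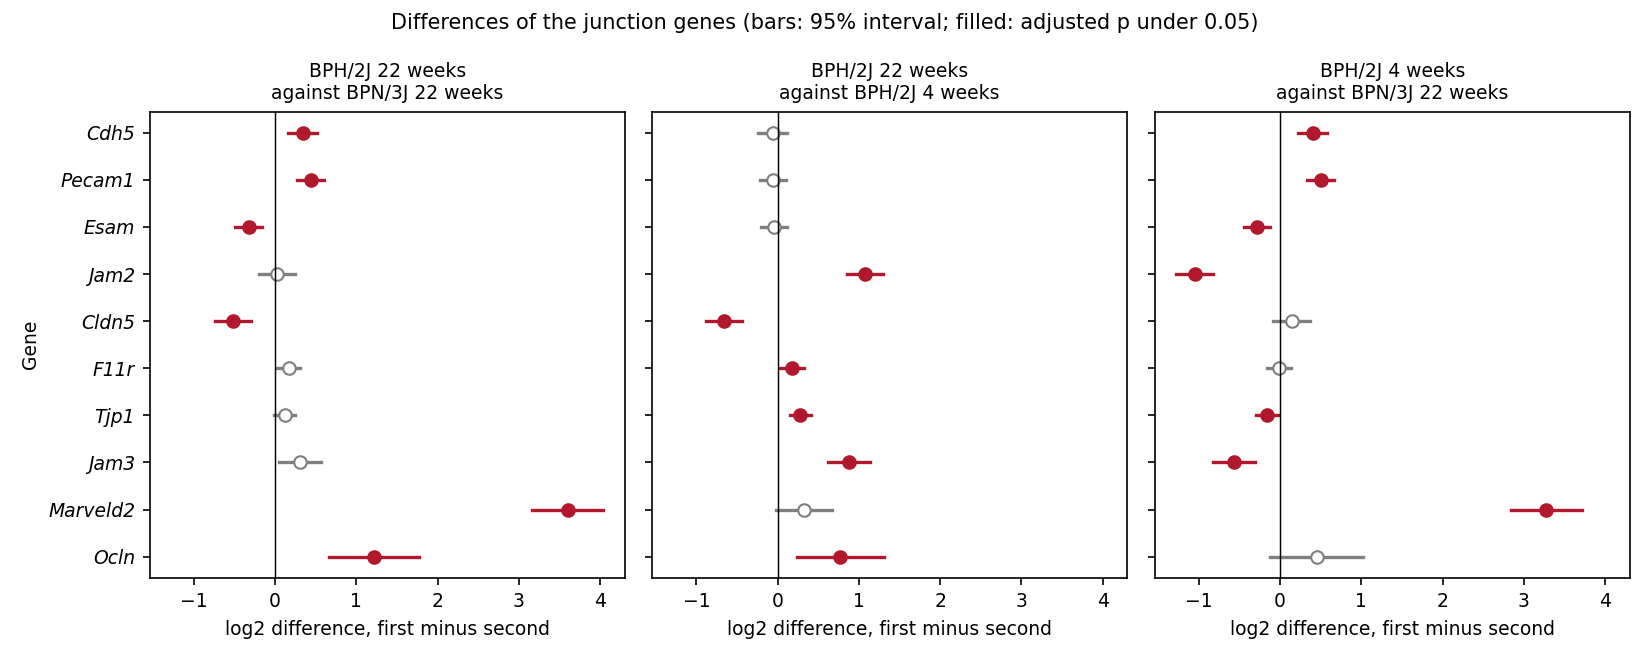
Log2 differences of the 10 junction genes in the 3 comparisons, first-named group minus second, with 95% intervals; filled red points had an adjusted p under 0.05. Marveld2 reaches 3.60 and 3.28 in the comparisons with BPN/3J, Jam2 and Jam3 are at 1.08 and 0.88 between the ages of BPH/2J, and Cldn5 is below 0 in both comparisons of the 22-week BPH/2J libraries.

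Cdh5 (chromosome 8, ENSMUSG00000031871) encodes VE-cadherin, the adhesive backbone of the endothelial adherens junction. It measured 2376, 2387 and 2453 CPM in BPN/3J, 3287, 3150 and 3107 in BPH/2J at 4 weeks and 2853, 3257 and 3037 at 22 weeks. Every BPH/2J library was above every BPN/3J library, and the ages of BPH/2J overlapped. The log2 difference between the lines was 0.34 ± 0.08 at 22 weeks (SE, adjusted p = 0.0075) and 0.40 ± 0.08 with the 4-week libraries (adjusted p = 0.00171), which are 1.27-fold and 1.32-fold. Between the ages it was -0.06, with a 95% interval from -0.24 to 0.12 (adjusted p = 0.574). In these bulk samples fewer cells of a type and less RNA per cell cannot be told apart, for this and every other gene. When libraries were scaled to the 14 pan-endothelial markers in place of all genes, the 22-week difference was 0.16 (adjusted p = 0.234). With the cardiomyocyte level as a covariate it was 0.35 (adjusted p = 0.267), and with the macrophage level 0.31 (adjusted p = 0.138).

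Pecam1 (chromosome 11, ENSMUSG00000020717) encodes the homophilic adhesion molecule CD31. Its level was 1342, 1404 and 1393 CPM in BPN/3J, 1830, 2055 and 1960 in BPH/2J at 4 weeks and 1816, 1887 and 1908 at 22 weeks. As with Cdh5, both BPH/2J groups were above BPN/3J without overlap and overlapped each other. The differences from BPN/3J were 0.44 ± 0.07 at 22 weeks (SE, adjusted p = 0.00117) and 0.50 ± 0.07 at 4 weeks (adjusted p = 0.000253). Between the ages the difference was -0.06, with an interval from -0.22 to 0.10 (adjusted p = 0.555). With the cardiomyocyte covariate the 22-week difference was 0.23 (adjusted p = 0.401).

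Esam (chromosome 9, ENSMUSG00000001946), an adhesion molecule of endothelial tight junctions and platelets, ran the other way. It measured 999, 1093 and 980 CPM in BPN/3J, 789, 875 and 861 in BPH/2J at 4 weeks and 811, 843 and 795 at 22 weeks. All 6 BPH/2J libraries were below all 3 BPN/3J libraries, with the ages again overlapping. Esam was lower than in BPN/3J by a log2 difference of -0.33 ± 0.07 at 22 weeks (SE, adjusted p = 0.00576) and -0.28 ± 0.07 at 4 weeks (adjusted p = 0.00777). The difference between the ages was -0.04, with an interval from -0.21 to 0.12 (adjusted p = 0.662). Of 10 platelet and megakaryocyte markers, 1 was lower at 22 weeks and 1 higher at 4 weeks than in BPN/3J, and their summed level was 33.8 to 37.5 CPM in BPN/3J, 33.4 to 85.9 in 4-week and 27.0 to 35.2 in 22-week BPH/2J. With the cardiomyocyte covariate the 22-week difference was -0.47 (adjusted p = 0.109) and with the macrophage covariate -0.32 (adjusted p = 0.0979).

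The opposite directions of Esam and Pecam1 set their ratio apart between the lines. Per length, Esam over Pecam1 was 1.12, 1.17 and 1.06 in BPN/3J, 0.649, 0.641 and 0.661 in BPH/2J at 4 weeks and 0.672, 0.672 and 0.627 in BPH/2J at 22 weeks. The BPN/3J ratios lay above 1 and every BPH/2J ratio lay below 0.7, with no overlap between the lines and overlap between the ages. Division by length sets where the ratios fall against 1 and leaves the separation of the lines unchanged. As a share of the summed level of the 10 genes, Esam made up 18.8 ± 0.471% in BPN/3J and 13.6 ± 0.393% in 22-week BPH/2J, and Pecam1 made up 16.8 ± 0.584% and 20.7 ± 0.342% (SD, n = 3).

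Cldn5 (chromosome 16, ENSMUSG00000041378) encodes claudin-5, the main claudin of endothelial tight junction strands. It was the only member of the 10 that passed the threshold as lower in 22-week BPH/2J against both other groups. Its level was 257, 275 and 216 CPM in BPN/3J, 300, 252 and 272 in BPH/2J at 4 weeks and 161, 172 and 189 at 22 weeks. Each 22-week BPH/2J library was below every other library, while the other 2 groups overlapped. The difference was -0.52 ± 0.10 from BPN/3J (SE, adjusted p = 0.00275) and -0.66 ± 0.10 from 4-week BPH/2J (adjusted p = 0.000625), or 1.43-fold and 1.58-fold lower. Between 4-week BPH/2J and BPN/3J it was 0.14, with an interval from -0.08 to 0.36 (adjusted p = 0.268). Relative to Cdh5, per length, Cldn5 stood at 0.305, 0.324 and 0.248 for BPN/3J, 0.257, 0.225 and 0.247 for the younger BPH/2J and 0.159, 0.149 and 0.176 for the older BPH/2J. That ratio was also lowest in the 22-week BPH/2J libraries, without overlap. Relative to the scaffold gene Tjp1 it was 1.82 to 2.36, 2.33 to 2.84 and 1.23 to 1.54 in the same order. With the cardiomyocyte covariate the difference between the lines was -0.15 (adjusted p = 0.711), and with the macrophage covariate the difference between the ages was -0.73 (adjusted p = 0.0912).

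Marveld2 (chromosome 13, ENSMUSG00000021636) encodes tricellulin, the MARVEL protein that seals the points where 3 cells meet. Its counts were 24, 20 and 29 across the BPN/3J libraries, 243, 215 and 300 across those of 4-week BPH/2J and 260, 325 and 368 across those of 22-week BPH/2J. In CPM these were 0.810, 0.695 and 1.02, then 7.93, 7.41 and 9.21, then 8.43, 10.5 and 11.9. BPN/3J was low in all 3 libraries, though above the 3-count floor, and both BPH/2J groups were high and overlapped. Marveld2 was 12.1-fold higher in 22-week BPH/2J than in BPN/3J (log2 3.60 ± 0.20, SE, adjusted p = 5.96e-07), the 163rd largest absolute difference among the 15277 genes. At 4 weeks it was 9.70-fold higher (log2 3.28 ± 0.20, adjusted p = 6.40e-07). Between the ages of BPH/2J the difference was 0.32, with an interval from -0.02 to 0.66 (adjusted p = 0.117). Over the alternatives other than leaving out a library, the 22-week difference ranged from 3.38 to 3.83 and the 4-week difference from 3.01 to 3.29, with adjusted p of at most 0.00228 and 0.00868.

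Ocln (chromosome 13, ENSMUSG00000021638) encodes occludin, the founding MARVEL protein of the tight junction strand. With 51, 64 and 62 counts in BPN/3J, 113, 64 and 80 in BPH/2J at 4 weeks and 151, 108 and 183 at 22 weeks, it was also scarce. The levels were 1.72, 2.22 and 2.18 CPM, 3.69, 2.21 and 2.46 CPM, and 4.90, 3.48 and 5.90 CPM. The 22-week BPH/2J libraries lay above BPN/3J without overlap, and the 4-week libraries overlapped both other groups. Ocln was 2.33-fold higher in BPH/2J than in BPN/3J at 22 weeks (log2 1.22 ± 0.25, SE, adjusted p = 0.0035). It was 1.71-fold higher at 22 than at 4 weeks (log2 0.77 ± 0.24, adjusted p = 0.026). Between 4-week BPH/2J and BPN/3J the difference was 0.45, with an interval from -0.12 to 1.02 (adjusted p = 0.165). The difference between the ages did not pass the threshold without 4-week replicate 2 (0.63, adjusted p = 0.0917), 4-week replicate 3 (0.69, adjusted p = 0.0882), 22-week replicate 1 (0.76, adjusted p = 0.0678) or 22-week replicate 3 (0.60, adjusted p = 0.103). Without the 4-week replicate 1, the library that stood apart and the highest of its group for Ocln, it was 1.03 (adjusted p = 0.00441). It did not pass either with pan-endothelial scaling (0.63, adjusted p = 0.0733), the cardiomyocyte covariate (0.53, adjusted p = 0.0662) or the macrophage covariate (0.02, adjusted p = 0.99). With the macrophage covariate the difference from BPN/3J was 0.71 (adjusted p = 0.197).

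The ratio of Marveld2 to Ocln, per length, was 0.588, 0.390 and 0.584 in BPN/3J, 2.69, 4.19 and 4.68 in BPH/2J at 4 weeks and 2.15, 3.76 and 2.51 in BPH/2J at 22 weeks. Ocln stood above Marveld2 in each BPN/3J library and below it in each BPH/2J library, both per length and in CPM.

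Ocln and Marveld2 are neighbours on the minus strand of chromosome 13, and the sequences around their starts are shown because the pair lies side by side yet differed by unlike amounts between the lines. The start of Cldn5, the claudin that was lowest in 22-week BPH/2J, is added for comparison. Each window covers 250 bases before to 50 bases after a RefSeq transcript start in build GRCm38.p6, whereas the submitters' processing notes list mm9 for the counts. The strands and positions are chr13:100616895-100617194 (minus) for Marveld2, chr13:100552669-100552968 (minus) for Ocln and chr16:18776597-18776896 (plus) for Cldn5. Capitals mark GGGCGG (a GC box) and CCAAT, read on either strand, so that CCGCCC and ATTGG are the same motifs on the other strand. Marveld2 and Ocln each had a pair of overlapping windows in the table, and 1 of each pair is shown.
Marveld2: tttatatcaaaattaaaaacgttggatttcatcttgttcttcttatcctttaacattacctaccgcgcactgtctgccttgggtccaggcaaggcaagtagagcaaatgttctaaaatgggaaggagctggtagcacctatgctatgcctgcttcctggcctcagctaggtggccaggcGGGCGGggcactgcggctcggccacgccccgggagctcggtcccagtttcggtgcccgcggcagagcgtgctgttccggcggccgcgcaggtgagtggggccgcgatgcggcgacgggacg
Ocln: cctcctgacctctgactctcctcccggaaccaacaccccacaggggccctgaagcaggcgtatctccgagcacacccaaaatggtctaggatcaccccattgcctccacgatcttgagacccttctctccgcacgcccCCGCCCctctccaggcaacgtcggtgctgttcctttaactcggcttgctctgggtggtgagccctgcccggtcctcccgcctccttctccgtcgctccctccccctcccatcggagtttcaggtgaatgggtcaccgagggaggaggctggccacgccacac
Cldn5: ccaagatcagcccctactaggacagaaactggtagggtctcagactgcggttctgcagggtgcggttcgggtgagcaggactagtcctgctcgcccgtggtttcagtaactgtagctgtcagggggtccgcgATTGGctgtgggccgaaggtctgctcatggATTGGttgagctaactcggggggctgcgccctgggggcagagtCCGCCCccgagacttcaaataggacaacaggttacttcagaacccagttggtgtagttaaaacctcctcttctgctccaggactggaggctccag

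The windows shown for Marveld2 and Ocln each held 1 GGGCGG match and no CCAAT match, and that of Cldn5 held 1 GGGCGG and 2 CCAAT matches. The other Ocln window, at chr13:100552449-100552748, held 1 GGGCGG and 1 CCAAT match, so the count of CCAAT for Ocln depended on the window chosen. The other Marveld2 window, at chr13:100616922-100617221, held the same matches as the one shown. The Marveld2 window also held 1 match to TATAAA, written on the other strand and not capitalised, near its upstream end. Among 32851 mouse promoter windows of the same length, 35.7% held GGGCGG, 37.4% held CCAAT and 13.6% held TATAAA, on either strand. CACGTG (in 7.15% of windows), TGTTTAC (3.65%) and CCGGAAG (8.86%) matched in none of the 3 windows shown. None of these motifs overlaps another in its letters as searched, and a match is a description of the letters only. Windows were found for F11r, Tjp1, Ocln, Marveld2 and Cldn5, 5 of the 10 genes.

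The difference in Marveld2 was not a feature of every gene around it. Rad17, which encodes a checkpoint clamp loader, is the next tested gene upstream on the same strand, and its window shared no base with that of Marveld2. Rad17 measured 33.5 ± 1.84 CPM in 22-week BPH/2J and 32.1 ± 1.22 in BPN/3J (SD, n = 3), a log2 difference of 0.06 (adjusted p = 0.453). On the other side of Ocln, Gtf2h2, a subunit of a general transcription factor, differed by 0.11 in the same comparison (adjusted p = 0.324). Gtf2h2 was higher in 4-week BPH/2J than in BPN/3J (log2 0.41, adjusted p = 0.00222). It was lower at 22 than at 4 weeks in BPH/2J (log2 -0.29, adjusted p = 0.0173). Rad17 passed in neither, at -0.01 (adjusted p = 0.914) and 0.07 (adjusted p = 0.3845). Farther along, Naip5, which encodes a sensor of bacterial flagellin, was higher in 22-week BPH/2J than in BPN/3J. It measured 21.2 ± 1.29 against 2.15 ± 0.623 CPM (log2 3.30, adjusted p = 3.11e-07). Naip2 was higher at 22.9 ± 1.94 against 7.45 ± 0.769 CPM (log2 1.62, adjusted p = 2.38e-06). Naip6, which lies between Naip5 and Gtf2h2 among the tested genes, differed by 0.28 (adjusted p = 0.125). The Naip genes are related copies, so the division of reads among them is uncertain. Elsewhere in the window, 4 genes were higher in 22-week BPH/2J than in BPN/3J. These were Ccnb1 (log2 1.35, adjusted p = 0.0029), Taf9 (0.35, 0.00653), Cdk7 (0.23, 0.00976) and Smn1 (0.22, 0.0496). Bdp1 (-0.37, 0.00261) and Ak6 (-0.44, 0.0232) were lower, and the remaining genes did not pass. Of all tested genes 38.0% differed in this comparison. The window of 8 tested protein-coding genes on each side, and the naming of the Naip genes, were chosen after their values were seen.

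**Figure D3:**
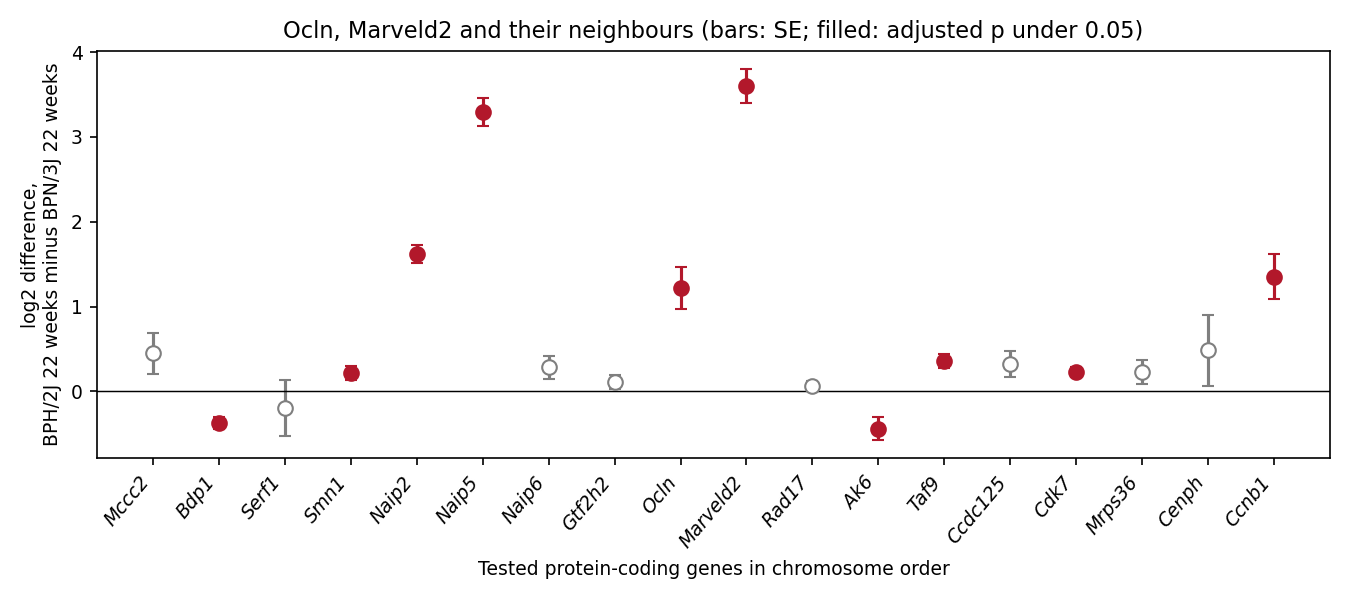
Log2 difference between 22-week BPH/2J and BPN/3J, with SE bars, for Ocln, Marveld2 and 8 tested protein-coding genes on each side in chromosome order; filled red points had an adjusted p under 0.05. Marveld2 at 3.60 and Naip5 at 3.30 are the highest points, and Rad17 and Gtf2h2, the genes flanking the pair, lie near 0.

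Tjp1 (chromosome 7, ENSMUSG00000030516) encodes ZO-1, the scaffold that links tight junction proteins to actin. Its level was 622, 606 and 616 CPM in BPN/3J, 550, 562 and 535 in BPH/2J at 4 weeks and 681, 676 and 643 at 22 weeks. The 4-week libraries were the lowest and the 22-week BPH/2J libraries the highest, and no 2 groups overlapped. From 4 to 22 weeks it was higher by 0.28 ± 0.06 (SE, adjusted p = 0.00388), or 1.21-fold. Between the lines at 22 weeks the difference was 0.12, with an interval from -0.01 to 0.25 (adjusted p = 0.144). Against BPN/3J the 4-week level was lower by a log2 difference of -0.16 ± 0.06 (adjusted p = 0.0382). That call was lost in 8 of the 9 fits that left out a library, with values from -0.18 to -0.15 and adjusted p up to 0.124, and held without the 4-week replicate 1 (adjusted p = 0.0354). It was also lost without a filter on low counts (-0.16, adjusted p = 0.0526), in the fit to the 2 groups alone (-0.16, adjusted p = 0.0821) and with the macrophage covariate (-0.16, adjusted p = 0.0957). The authors' deposited table gives a false discovery rate of 0.18 for it. The age difference was 0.15 with pan-endothelial scaling (adjusted p = 0.108) and 0.28 with the macrophage covariate (adjusted p = 0.289).

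Jam2 (chromosome 16, ENSMUSG00000053062) and Jam3 (chromosome 9, ENSMUSG00000031990) encode JAM-B and JAM-C, which bind each other across the contact. Jam2 measured 1050, 1176 and 937 CPM in BPN/3J, 563, 481 and 479 in BPH/2J at 4 weeks and 1127, 1003 and 1088 at 22 weeks. The 4-week libraries were far below all others, and the 22-week groups overlapped. Jam2 was 2.11-fold higher at 22 than at 4 weeks in BPH/2J (log2 1.08 ± 0.10, SE, adjusted p = 3.47e-05). It was lower in 4-week BPH/2J than in BPN/3J by a log2 difference of -1.05 ± 0.10 (adjusted p = 1.30e-05). Between the lines at 22 weeks the difference was 0.02, with an interval from -0.20 to 0.25 (adjusted p = 0.864).

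Jam3 followed with 153, 176 and 140 CPM in BPN/3J, 127, 95.7 and 93.9 in BPH/2J at 4 weeks and 200, 186 and 196 at 22 weeks. Here the 3 groups were separate, lowest at 4 weeks and highest in 22-week BPH/2J. Jam3 was 1.84-fold higher at 22 than at 4 weeks (log2 0.88 ± 0.12, SE, adjusted p = 0.000278) and lower in 4-week BPH/2J than in BPN/3J (log2 -0.57 ± 0.12, adjusted p = 0.00225). Between the lines at 22 weeks the difference was 0.31, with an interval from 0.05 to 0.57 and an adjusted p of 0.058, which missed the threshold. It passed without BPN/3J replicate 2 (0.41, adjusted p = 0.0364), without 4-week BPH/2J replicate 1 (0.32, adjusted p = 0.00625) and with DESeq2 (0.30, adjusted p = 0.0497). The call was also made by the fit to the 2 groups alone (0.31, adjusted p = 0.0127) and without a filter on low counts (0.33, adjusted p = 0.0486). Entering the cardiomyocyte level as a covariate gave 1.10 (adjusted p = 0.00485). The authors' deposited table gives a false discovery rate of 0.0233. With the macrophage covariate the age difference was 0.48 (adjusted p = 0.225). With the cardiomyocyte covariate the 4-week differences from BPN/3J were -0.42 for Jam2 (adjusted p = 0.272) and 0.37 for Jam3, the latter of opposite sign.

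F11r (chromosome 1, ENSMUSG00000038235) encodes JAM-A, the family member found in epithelium, endothelium, leukocytes and platelets alike. Its level was 335, 326 and 303 CPM in BPN/3J, 329, 316 and 310 in BPH/2J at 4 weeks and 341, 379 and 362 at 22 weeks. The 22-week BPH/2J libraries were above all others by a narrow gap, and the other 2 groups overlapped. From 4 to 22 weeks it was higher by 0.18 ± 0.07 (SE, adjusted p = 0.0484), or 1.13-fold. That call did not hold without BPN/3J replicate 1 or 2 (adjusted p = 0.0594 and 0.0708), 4-week replicate 2 or 3 (0.119 and 0.136) or 22-week replicate 2 or 3 (0.144 and 0.102), nor with median-of-ratios scaling (0.051). It was 0.18 in the fit to the 2 groups alone (adjusted p = 0.0616) and 0.053 with pan-endothelial scaling (adjusted p = 0.645). The covariate fits gave 0.18 for the cardiomyocyte level (adjusted p = 0.0772) and 0.20 for the macrophage level (adjusted p = 0.491). The authors' deposited table gives a false discovery rate of 0.118. Between the lines at 22 weeks the difference was 0.17, with an interval from 0.02 to 0.31 and an adjusted p of 0.0671. It passed without the 4-week replicate 1 (0.17, adjusted p = 0.0358) and with upper-quartile scaling (0.18, adjusted p = 0.0417). Between 4-week BPH/2J and BPN/3J it was -0.01, with an interval from -0.16 to 0.13 (adjusted p = 0.881). Of 10 lymphocyte markers, 6 were higher and none lower at 22 than at 4 weeks in BPH/2J (median log2 difference 0.90), 2 were higher and 1 lower than in BPN/3J at 22 weeks, and 1 was higher and 2 lower at 4 weeks. Their summed level was 55.9 to 63.6 CPM in BPN/3J, 40.9 to 62.7 in BPH/2J at 4 weeks and 53.6 to 120 at 22 weeks. Their part in the F11r values was not tested.

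The 3 JAM genes therefore differed in balance between the ages. Jam2 over F11r, per length, was 1.42, 1.64 and 1.40 for BPN/3J, 0.775, 0.690 and 0.701 for the younger BPH/2J and 1.5, 1.2 and 1.36 for the older BPH/2J. Per length, Jam2 stood above F11r in each 22-week library of either line and below it in the 4-week libraries. That crossing rests on the deposited gene lengths, 5872 bases for Jam2 and 2663 for F11r. In CPM, Jam2 was above F11r in every library. Jam2 over Jam3 was 2.96, 2.89 and 2.89 across the BPN/3J libraries, 1.91, 2.17 and 2.20 across those of 4-week BPH/2J and 2.43, 2.33 and 2.40 across those of 22-week BPH/2J. This ratio was separate in all 3 groups and highest in BPN/3J.

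**Figure D4:**
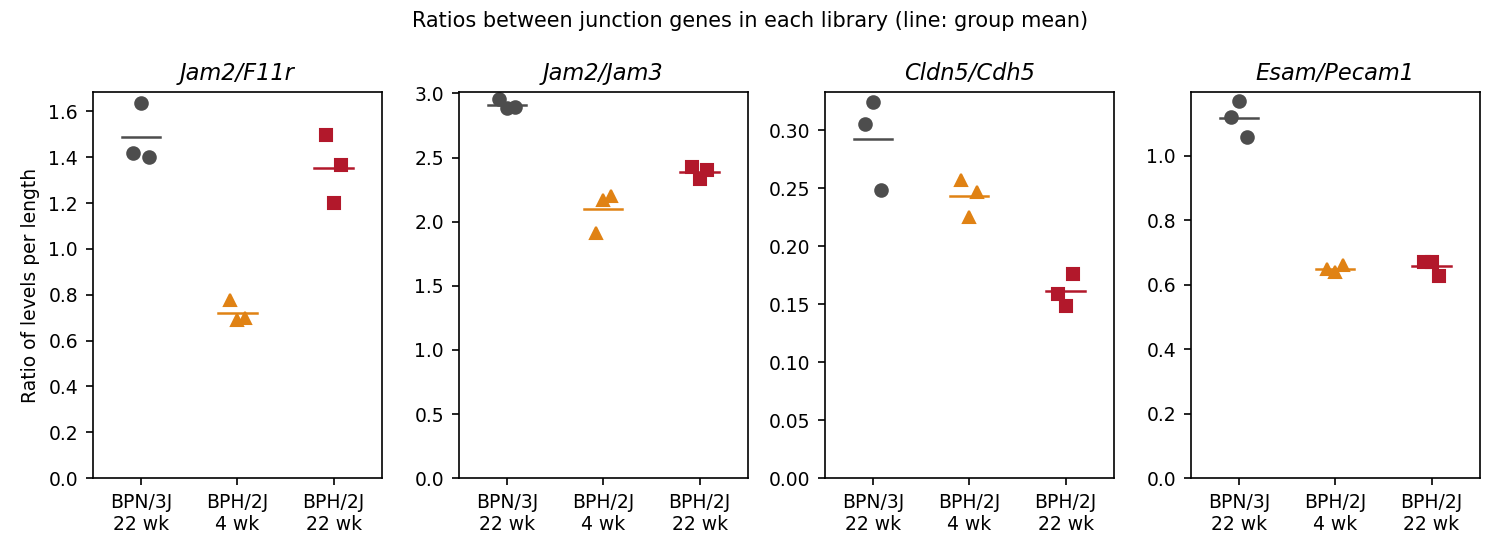
Ratios of levels per length between pairs of junction genes in each library, with a line at each group mean of 3. Esam over Pecam1 separates the lines (1.06 to 1.17 in BPN/3J, 0.627 to 0.672 in BPH/2J), Jam2 over F11r is low in 4-week BPH/2J (0.690 to 0.775), and Cldn5 over Cdh5 is low in 22-week BPH/2J (0.149 to 0.176).

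With the cardiomyocyte covariate, the differences between 4-week BPH/2J and BPN/3J did not pass for Cdh5 (0.41, adjusted p = 0.285), Pecam1 (0.24, adjusted p = 0.47), Esam (-0.46, adjusted p = 0.205) or Tjp1 (-0.20, adjusted p = 0.485). Marveld2 still passed there. Scaling to the pan-endothelial markers moved the median log2 difference of all genes by -0.18, -0.12 and -0.06 in the 3 comparisons, in the order described, and took the share of calls that were higher from 52.0% to 19.6%, from 48.6% to 26.9% and from 52.4% to 45.0%. Without the 4-week replicate 1, the numbers of the 10 genes that differed were 8, 6 and 7, while the shares of all 15578 genes then tested were 45.7%, 47.4% and 55.7%.

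The proteins that work with these genes at the junction were read from lists made for tight junction partners, adherens junction partners and endothelial junction signalling. At 22 weeks, 6 of 27 tested tight junction partners were higher and 2 lower in BPH/2J than in BPN/3J, with a median log2 difference of -0.10. For all tested genes these figures were 19.8% higher, 18.2% lower and a median of 0.02. Mpp5, which encodes the polarity scaffold PALS1, was higher at 79.7 ± 3.07 against 52.9 ± 0.479 CPM (log2 0.59, adjusted p = 2.23e-05). Pard6g, another polarity gene, was higher at 8.58 ± 1.55 against 6.37 ± 0.772 CPM with overlapping libraries (log2 0.43, adjusted p = 0.0457). Amotl2, an angiomotin that couples VE-cadherin to actin, was lower at 221 ± 8.32 against 449 ± 114 CPM (log2 -1.02, adjusted p = 0.000573). Inadl, which encodes the PALS1 partner PATJ, was lower at 5.27 ± 0.579 against 7.28 ± 0.640 CPM (log2 -0.46, adjusted p = 0.0419). The count of 6 was 3 without BPN/3J replicate 1 or 22-week BPH/2J replicate 2. The count of 2 was 1 without BPN/3J replicate 2 or 3 or 22-week BPH/2J replicate 2, and 4 without 4-week BPH/2J replicate 1.

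Among 22 adherens junction partners, 4 were higher and 4 lower in 22-week BPH/2J than in BPN/3J, with a median of 0.06, read against the same figures for all genes. Ctnnb1, which encodes the beta-catenin bound by VE-cadherin, was higher at 2151 ± 67.5 against 1407 ± 30.4 CPM (log2 0.61, adjusted p = 9.24e-05). Cdh13, the lipid-anchored T-cadherin, was higher at 429 ± 45.2 against 321 ± 22.2 CPM (log2 0.42, adjusted p = 0.00631). Pvrl3, which encodes nectin-3, was lower at 38.4 ± 2.99 against 64.9 ± 1.92 CPM (log2 -0.76, adjusted p = 0.000129), and its ligand Pvr was lower at 47.1 ± 2.89 against 68.4 ± 2.48 CPM (log2 -0.54, adjusted p = 0.00125). Among 26 signalling genes, 2 were higher and 7 lower, with a median of -0.05. The adhesion molecules Mcam and Icam2 were higher, by 0.77 (adjusted p = 0.0001) and 0.35 (adjusted p = 0.00708). S1pr1, the sphingosine-1-phosphate receptor that steadies junctions, was lower at 721 ± 21.0 against 1264 ± 97.8 CPM (log2 -0.81, adjusted p = 0.00158), and the Rac exchange factor Vav2 was lower by a log2 difference of -0.48 (adjusted p = 0.013). Of the signalling counts, 7 was 4 without BPN/3J replicate 3 or 22-week BPH/2J replicate 2, and 11 without 4-week BPH/2J replicate 1, which also took 2 to 4.

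From 4 to 22 weeks in BPH/2J, 3 tight junction partners were higher and 6 lower (median -0.13), 2 adherens junction partners were higher and 9 lower (median -0.18), and 2 signalling genes were higher and 9 lower (median -0.13). Of all tested genes 19.9% were higher and 21.1% lower, with a median of 0.01. Inadl was higher at 22 weeks, at 5.27 ± 0.579 against 2.31 ± 0.506 CPM (log2 1.19, adjusted p = 0.000437), and so was Marveld1, a further MARVEL gene (log2 0.22, adjusted p = 0.0438). Ybx3, which encodes the ZO-1 binding factor ZONAB, and the scaffold gene Magi3 were lower by -0.46 (adjusted p = 0.000667) and -0.40 (adjusted p = 0.00666). Mllt4, which encodes afadin, the nectin partner, was higher at 1003 ± 44.5 against 680 ± 18.2 CPM (log2 0.56, adjusted p = 0.000149). The intermediate filament gene Vim was lower at 1550 ± 254 against 3367 ± 164 CPM (log2 -1.12, adjusted p = 6.71e-05). Vcl, which encodes vinculin, was lower at 114 ± 7.23 against 208 ± 28.2 CPM (log2 -0.87, adjusted p = 7.33e-05), and the desmosomal gene Dsp was higher with overlapping libraries (log2 0.40, adjusted p = 0.0421). Ptprb, the phosphatase that acts on the VE-cadherin complex, was higher at 2378 ± 58.8 against 1618 ± 90.3 CPM (log2 0.56, adjusted p = 0.000479), and Cd99l2 was higher by 0.46 (adjusted p = 0.000904). Mcam and the kinase gene Fyn were lower, by -0.84 (adjusted p = 5.63e-05) and -0.74 (adjusted p = 0.00468). The count of 3 was 1 without 22-week BPH/2J replicate 1 or 2. The count of 6 was 2 without 4-week replicate 2 or 22-week BPH/2J replicate 1, and 3 without 22-week BPH/2J replicate 3. The 2 adherens partners were 1 in 5 of the 9 fits that left out a library, namely BPN/3J replicate 2, 4-week replicates 2 and 3, and 22-week BPH/2J replicates 1 and 3.

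Between 4-week BPH/2J and BPN/3J, 9 tight junction partners were higher and 4 lower (median 0.18), 11 adherens junction partners were higher and 2 lower (median 0.29), and 8 signalling genes were higher and 6 lower (median 0.09). Of all tested genes 27.8% were higher and 25.3% lower, with a median of 0.00. Mcam was the most strongly higher of the named partners, at 737 ± 41.8 against 241 ± 14.9 CPM (log2 1.61, adjusted p = 3.97e-07). Vim was higher at 3367 ± 164 against 1286 ± 95.8 CPM (log2 1.39, adjusted p = 6.58e-06), and Fyn by 1.09 (adjusted p = 0.000272). Pvrl2, Pard6g and Ybx3 were higher by 0.85 (adjusted p = 3.61e-05), 0.79 (adjusted p = 0.00128) and 0.68 (adjusted p = 2.69e-05). Inadl, Amotl2, S1pr1, Dsp, Ptprb and Mllt4 were lower, with log2 differences of -1.66, -0.99, -0.90, -0.90, -0.80 and -0.37 and adjusted p between 2.15e-05 and 0.00112. The 8 signalling genes were 4 without 4-week replicate 3.

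The partner counts changed when marker levels of other cells were entered as covariates and when the scaling was changed, as did the counts of all tested genes. Most markers behind a covariate moved with the group, so the changes under the covariates are not results about the partners. The 4-week comparison with BPN/3J, fitted with the cardiomyocyte covariate, called 1 tight junction partner higher and 1 lower, 1 adherens junction partner higher and 1 lower, and 1 signalling gene higher and 2 lower. In that fit 959 of all 15277 tested genes were higher and 724 lower. With the macrophage covariate the comparison of the ages called 2 listed genes in all, both adherens junction partners that were lower. It called 532 of all 15277 tested genes, 183 higher and 349 lower. With pan-endothelial scaling the comparison of the lines at 22 weeks called 1 tight junction partner higher and 8 lower, 2 adherens junction partners higher and 7 lower, and 1 signalling gene higher and 14 lower. Over all tested genes, 1171 were then higher and 4817 lower.

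**Figure D5:**
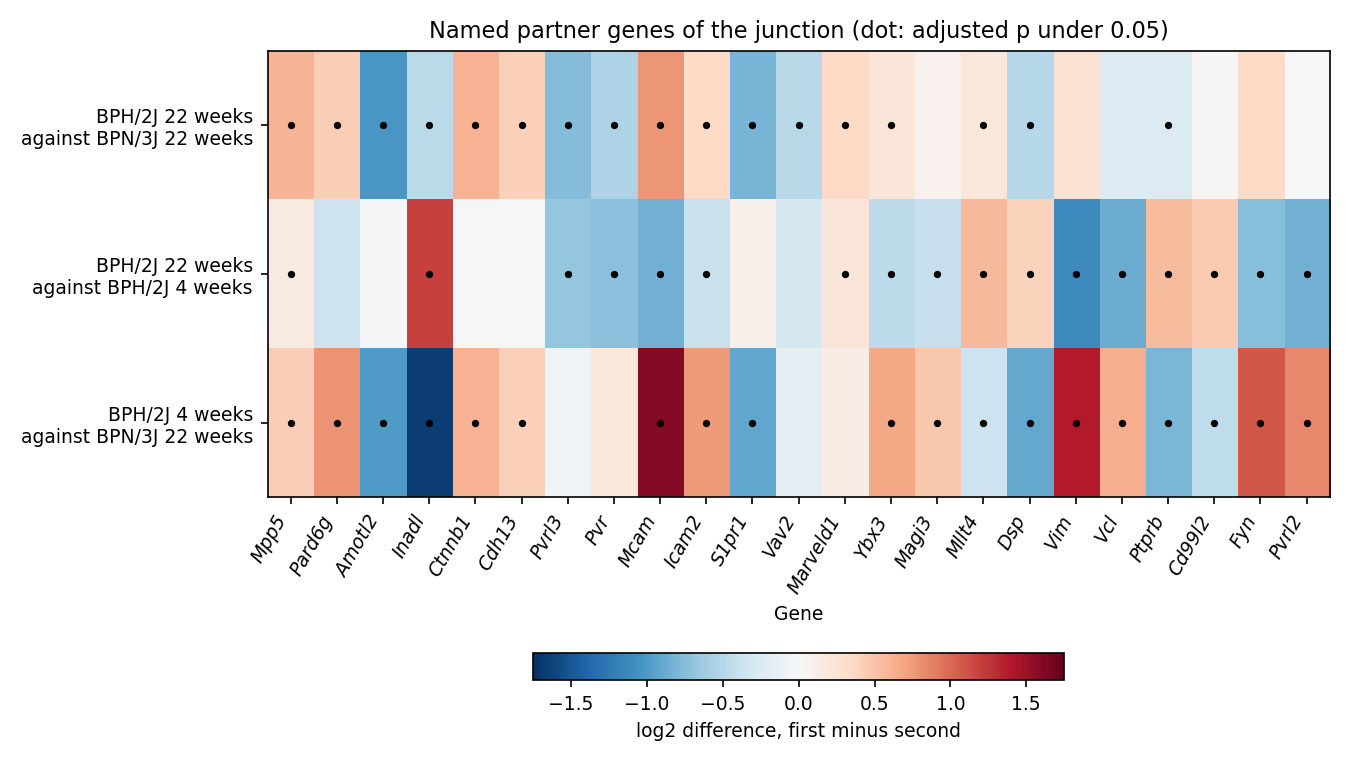
Log2 differences (colour scale, first-named group minus second) of the named partner genes in the 3 comparisons; a dot marks an adjusted p under 0.05. Mcam and Vim are the most strongly higher in 4-week BPH/2J against BPN/3J, at 1.61 and 1.39, and Inadl the most strongly lower, at -1.66.

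Over the 9 libraries, the genes whose log2 CPM followed each junction gene most closely were sought among 10152 or 10153 genes. These had a mean of at least 5 CPM, and genes with predicted, clone, -ps or -rs symbols were left out. The Pearson correlations describe libraries that share 3 groups and carry no test. Marveld2 was most like Il27ra (r = 0.998), Ccdc28b (0.997) and Pafah2 (0.994), and Ocln like Iah1 (0.973), Lepr (0.963) and Rcn3 (0.962). Cdh5 was most like Tmem86a (0.986), Impad1 (0.983) and Crlf2 (0.982), and Pecam1 like Them4 (0.998), Rnf152 (0.99) and Poldip3 (0.987). Esam was most like Kin (0.995), Akap12 (0.989) and Ints8 (0.978). Cldn5 was followed by Atf5 (0.967), Eif2s2 (0.966) and Serp1 (0.964), and Tjp1 by Ifi203 (0.988), Shprh (0.986) and Plcb1 (0.982). Jam2 was most like Zrsr1 (0.996), Spop and Cd300lg (both 0.995), Jam3 like Smim14 (0.993), Use1 and Armcx5 (both 0.991), and F11r, with the weakest match, like Nudt16 (0.96), Ppp2r3c (0.933) and Adh5 (0.931).

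Other cells in the preparation were read from the marker lists and, for those given here, the most abundant gene over all 9 libraries. The cardiomyocyte pump gene Atp2a2 stood at 373 ± 40.3 CPM in BPN/3J, 389 ± 70.7 in 4-week and 271 ± 6.73 in 22-week BPH/2J (SD, n = 3). It did not follow its list: 15 of the 18 cardiomyocyte markers were lower at 4 weeks than in BPN/3J (median log2 difference -0.71), and between the ages 3 were higher and 1, Atp2a2 itself, was lower (median 0.19). The macrophage lysozyme gene Lyz2 stood at 146 ± 38.5, 202 ± 69.5 and 92.2 ± 14.0 CPM.

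The pericyte gene Rgs5 stood at 470 ± 50.4, 853 ± 89.7 and 776 ± 69.2 CPM in the same order. Of the 11 pericyte and smooth muscle markers, only 1 was higher and 1 lower between the lines at 22 weeks, none was higher and 2 were lower between the ages, and 3 were higher and 1 lower at 4 weeks against BPN/3J. Their sums were 1298 to 1527, 1536 to 1914 and 1499 to 1791 CPM. The fibroblast marker Gsn was at 703 ± 22.0, 174 ± 41.0 and 290 ± 41.5 CPM, while the 10 genes of its list went both ways, with 2 higher and 3 lower between the lines, 3 higher and 4 lower between the ages, and 4 higher and 4 lower at 4 weeks against BPN/3J. The fibroblast sums were 1232 to 1313, 704 to 1094 and 712 to 831 CPM.

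Bmp6 of the endocardial list stood at 378 ± 30.8, 55.4 ± 10.3 and 195 ± 44.4 CPM. Of the 6 endocardial markers, 1 was higher and 1 lower between the lines, 4 were higher and 1 lower between the ages (median log2 difference 1.03), and 1 was higher and 3 lower at 4 weeks against BPN/3J, with sums of 708 to 735, 267 to 329 and 406 to 676 CPM. Flt4 of the lymphatic list stood at 204 ± 12.6, 262 ± 59.5 and 231 ± 19.7 CPM, and of the 6 lymphatic markers 1 was higher at 4 weeks than in BPN/3J and no other passed in any comparison. The epithelial and mesothelial marker Wt1 was at 121 ± 6.12, 106 ± 11.3 and 54.8 ± 7.56 CPM, with 2 of 3 tested markers lower between the lines, 2 between the ages and 1 at 4 weeks against BPN/3J. The erythroid Hbb-bs was at 98.8 ± 13.1, 63.1 ± 20.3 and 67.5 ± 11.1 CPM, with 4, 1 and 3 of 5 tested markers lower in the same order of comparisons. The platelet Pf4 was at 12.4 ± 3.01, 20.6 ± 5.68 and 7.87 ± 1.10 CPM. The part of these cells in the junction gene values was not tested.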

How the data were processed

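Build mm9 is the one listed in the submitters' processing notes, together with TopHat2 2.0.13 and Bowtie2, CASAVA 1.8.2, Subread with featureCounts, FastQC, and edgeR; their roles and settings are not given in the sources used here, and neither is strand handling. The authors deposited 1 table with raw counts per gene, CPM, a gene length, and log2 fold changes with p-values and false discovery rates of their own. The deposited CPM, log2 and p-value columns were used only where named. From the deposited counts, edgeR 4.0.16 in R 4.3.3 gave TMM-scaled CPM and quasi-likelihood tests on the 9 libraries with filterByExpr. Standard errors were derived from the F statistic, and RPKM from the deposited length. DESeq2 1.42.0 and limma 3.58.1 served as alternatives. Partners named are, per list, comparison and direction, the 2 called genes with the largest difference and at least 5 CPM in the higher group; named markers are the most abundant of each list (1 is not reported here), and the 3 best-correlated genes are named per member. The fit was also run on simulated counts with the same spread for every gene and no library set apart. That setting differs from these data, and no result here rests on it. The members and lists were chosen with earlier results of these data known. Motif and neighbour windows used GRCm38 annotation by gene name.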

Additional observations from a re-analysis of the deposited data

How the results depend on the processing

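Scaling to the pan-endothelial markers left 3 of the 10 genes differing between the ages, and changed the counts of all genes to 1171 higher and 4817 lower between the lines at 22 weeks and 1649 higher between the ages. It turned the 22-week line differences of Tjp1 (-0.068), F11r (-0.016) and Jam2 (-0.16), none of which had passed. With the cardiomyocyte covariate, 3 of the 10 genes differed between the lines at 22 weeks (2703 of all genes, 1329 higher and 1374 lower) and 1 between 4-week BPH/2J and BPN/3J (1683 of all genes, 959 higher and 724 lower), where F11r (0.0093) and Jam3 (0.37) turned. With the macrophage covariate, 3 differed between the lines (2567 of all genes, 1210 higher and 1357 lower), where Jam2 turned to -0.14, and 1 between the ages (532 of all genes, 183 higher and 349 lower); the share of age calls that were higher went from 48.6% to 34.4%. The cause of each change was not tested.

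Leaving out 1 library at a time gave 6 to 8, 4 to 6 and 6 to 7 of the 10 genes in the order line, age, 4-week against BPN/3J, and 4362 to 7117 (2270 to 3727 higher, 2092 to 3390 lower), 4606 to 7383 (2235 to 3703 higher, 2359 to 3680 lower) and 6968 to 8682 of all genes (3686 to 4473 higher, 3282 to 4209 lower). Jam2 between the lines ranged from -0.054 to 0.11, turning without BPN/3J replicate 3 or 22-week BPH/2J replicate 1 (-0.0067), and F11r between 4-week BPH/2J and BPN/3J from -0.053 to 0.019, turning without BPN/3J replicate 1 or 4-week replicate 3 (0.00363). Of the values for single junction genes, 289 kept call and direction under the other alternatives, 30 lost and 5 gained the call, and 6 turned.

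The replicate numbers did not pair the libraries: residuals of equal numbers correlated from -0.161 to 0.0774. With the replicate number as a block, 6, 5 and 6 of the 10 genes differed, against 34.4%, 37.7% and 50.6% of all tested genes. F11r between the ages (0.18, adjusted p = 0.0746) and Tjp1 at 4 weeks against BPN/3J (-0.16, adjusted p = 0.0666) lost the call. Depth limits Marveld2 and Ocln most, at 20 to 29 and 51 to 64 counts in BPN/3J.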
